A study of Arabidopsis thaliana with 40 samples.

Results

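The total RNA-seq comparison of *rdr3* with its own Col-0 was examined in unopened flower buds of *Arabidopsis thaliana*. *rdr3* is a T-DNA insertion line of *RDR3*, here libraries 11 and 12, and Col-0 is the wild-type ecotype Columbia-0, here libraries 9 and 10. All 4 libraries came from untreated, soil-grown plants of 30 days. The labels of the *rdr3* libraries give their controls the numbers 1 and 2, which no Col-0 total RNA library carries, so libraries 9 and 10 stand as the controls by inference. All 64790 features of the sense table and the same 64790 of the antisense table were taken, 33601 genes and 31189 transposable elements, from a series of 40 libraries and 40 deposited tables. HTSeq's rows for reads without a feature were left out.

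The deposited tables hold no value for a single library. Each row gives the authors' comparison of *rdr3* with Col-0, whose fold changes and p-values were not used, and a mean abundance over the *rdr3* and Col-0 libraries together, in log2 CPM (read counts scaled to the size of the library, on the log2 scale). A difference between *rdr3* and Col-0 was therefore not computed, and no value below has an SD, a replicate number or a test. The depth of each library is unknown. What the mean shows is how much RNA of each kind the 4 libraries held, and this was set beside the mean of the other total RNA comparisons. The tables of *sgs3*, of the libraries labelled *rdm12* and of *rdr1*, *rdr2*, *rdr4*, *rdr5* and *rdr6*, each compared with the other 2 Col-0 libraries, carry the same mean in all 7 tables on each strand, with a largest difference of 0 over 64795 rows. It is called the joint set here, and the mean over the *rdr3* and Col-0 libraries of the *rdr3* comparison is called the *rdr3* set. The joint comparisons used 16 libraries, 2 of them Col-0, and the *rdr3* comparison used 4, also with 2 of Col-0. The joint set includes mutants such as *rdr2*, *rdr6* and *sgs3*, so the sets differ in genotype as well. The sets were normalized separately by the authors, so levels set across them carry that scale as well.

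RNA-dependent RNA polymerases (RDRs) copy single-stranded RNA into double-stranded RNA, which Dicer-like (DCL) proteins cut into small RNAs (smRNAs) that are loaded into Argonaute (AGO) proteins. RDR2 works with RNA polymerase IV on transposable elements, and RDR6 works with SGS3 on *TAS* transcripts, which give rise to *trans*-acting siRNAs. RDR3 belongs to a further group with RDR4 and RDR5, whose substrates are little known. MicroRNAs (miRNAs) need no RDR, since DCL1 cuts them from a hairpin that folds within a single transcript.

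Most of the largest differences between the sets lay at miRNA genes, so sequences annotated at the leading miRNA genes are shown first. By log2 CPM, which is not divided by length, the highest miRNA genes on the sense strand were *MIR158a*, *MIR166a*, *MIR159a*, *MIR780*, *MIR403*, *MIR159b*, *MIR319a*, *MIR161*, *MIR396b* and *MIR162b*. The mature sequences of 8 of them are given in genomic letters of the RefSeq assembly TAIR10.1, 5′ to 3′, with bases 2 to 8, the seed, in capitals. The tables count a whole gene, so they do not say which arm of a hairpin was read. Reads with several places in the genome were assigned to no feature. A mature sequence that several genes share therefore could not supply these levels. Whether the sequences shown occur elsewhere in the genome was not tested.
miR158a-3p: tCCCAAATgtagacaaagca
miR166a-3p: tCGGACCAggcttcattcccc
miR159a: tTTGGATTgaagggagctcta
miR159b-3p: tTTGGATTgaagggagctctt
miR319a: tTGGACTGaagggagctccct
miR403-3p: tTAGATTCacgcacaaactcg
miR161.1: tGAAAGTGactacatcggggt
miR396b-5p: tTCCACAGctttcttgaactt
miR159a and miR159b-3p share the seed TTGGATT, and the other 6 seeds each occur once in this set. miR159 is known to act on GAMYB-like transcription factors of the anther, miR319 on TCP factors, miR166 on class III HD-ZIP factors, miR396 on growth-regulating factors, miR403 on *AGO2*, miR162 on *DCL1* and miR161 on pentatricopeptide repeat genes. The hairpin of *MIR158a*, on chromosome 3 from 3366331 to 3366430 on the minus strand, is shown because its gene had the highest level, with both annotated mature arms in capitals.
MIR158a hairpin: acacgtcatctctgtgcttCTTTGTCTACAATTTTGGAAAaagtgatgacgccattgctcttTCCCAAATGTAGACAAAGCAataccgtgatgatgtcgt

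On the sense strand, 13939 features (21.5%) of the *rdr3* set and 14486 (22.4%) of the joint set had a mean log2 CPM above 0, which is taken here as detected. On the antisense strand, 2456 features (3.79%) of the *rdr3* set and 382 (0.59%) of the joint set were detected. The sense totals were close, but the kinds of feature behind them differed. Protein-coding genes were detected less often in the *rdr3* set, 11812 of 26711 (44.2%) against 14182 (53.1%) in the joint set. miRNA, snoRNA and tRNA genes, pseudogenes and transposable elements were detected more often on that strand in the *rdr3* set.

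miRNA genes were detected in 66 of 178 cases (37.1%) in the *rdr3* set and in 2 (1.12%) in the joint set, which were *MIR163* and *MIR168a*. Transposable elements were detected on the sense strand in 1460 of 31189 cases (4.68%) in the *rdr3* set and in 8 (0.0257%) in the joint set. Antisense, they numbered 1532 (4.91%) in the *rdr3* set and 77 (0.247%) in the joint set. Small nucleolar RNA (snoRNA) genes, whose products guide the modification of ribosomal RNA, were detected in 47 of 71 cases in the *rdr3* set and in 24 in the joint set. tRNA genes were detected in 28 of 623 cases in the *rdr3* set and in 4 in the joint set. Sense pseudogenes numbered 182 of 3911 in the *rdr3* set and 14 in the joint set, and antisense ones 174 in the *rdr3* set and 4 in the joint set. Plastid genes, at 98 of 133 in the *rdr3* set and 92 in the joint set, and mitochondrial genes, at 39 of 146 in the *rdr3* set and 41 in the joint set, were detected about equally often.

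**Figure D1:**
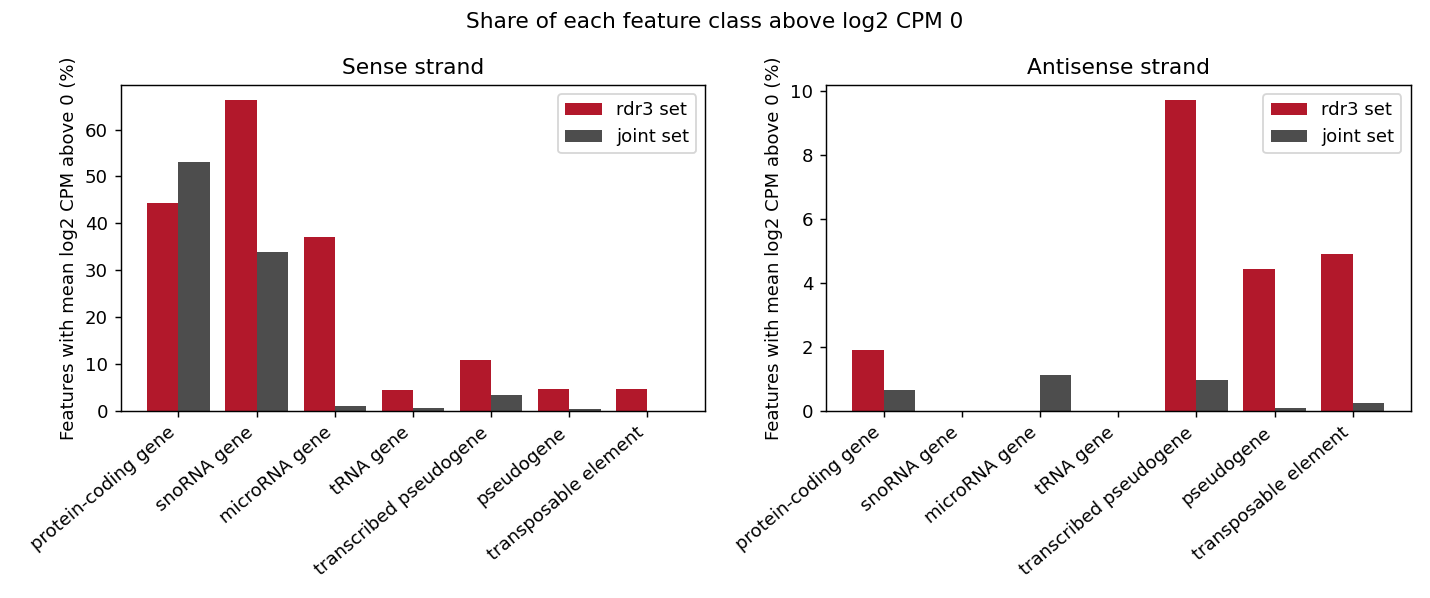
Share of the features of each class, in percent, with a mean log2 CPM above 0 in the *rdr3* set (red, left bar) and the joint set (grey, right bar), for sense (left panel) and antisense levels (right panel). miRNA genes reached 37.1% in the *rdr3* set and 1.12% in the joint set on the sense strand, while protein-coding genes reached 44.2% in the *rdr3* set and 53.1% in the joint set.

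The levels of single miRNA genes lay far apart in the 2 sets. *MIR158a* had a mean sense log2 CPM of 9.71 in the *rdr3* set and -0.64 in the joint set. *MIR166a* had 8.68 in the *rdr3* set and -1.34 in the joint set. *MIR159a* had 8.26 in the *rdr3* set and -1.35 in the joint set. These 3 genes were thus abundant in the *rdr3* set and undetected in the joint set, where the lowest sense value was -1.85. *MIR780* (7.83), *MIR403* (7.71), *MIR159b* (7.56), *MIR319a* (7.37) and *MIR161* (7.18) followed in the *rdr3* set, and the same genes lay between -1.77 and -1.24 in the joint set. *MIR396b*, at 6.13 in the *rdr3* set and -1.56 in the joint set, and *MIR162b*, at 6.04 in the *rdr3* set and -1.73 in the joint set, completed the 10 highest. Of the 66 miRNA genes detected in either set, 64 were detected in the *rdr3* set alone and so had to lie higher there. No miRNA gene was detected on the antisense strand in the *rdr3* set, and 2 were in the joint set, *MIR408* at 0.10 and *MIR398c* at 0.57.

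*TAS* loci, the substrates of RDR6 and SGS3, were present on both strands in the *rdr3* set. *TAS1C* (chromosome 2, 16537288 to 16538277, TAIR10.1) had a log2 CPM of 6.39 sense and 7.03 antisense in the *rdr3* set, against 0.69 sense and -1.62 antisense in the joint set. *TAS2* had 5.39 sense and 5.73 antisense in the *rdr3* set, against 0.87 sense and -1.73 antisense in the joint set. *TAS3*, whose siRNAs act on auxin response factors, had 4.36 sense and 5.21 antisense in the *rdr3* set, against -0.56 sense and -1.61 antisense in the joint set. In each of these 3 loci the antisense level exceeded the sense level in the *rdr3* set, and the antisense level lay close to the lowest antisense value, -1.77, in the joint set. *TAS1B* had 3.26 sense and 3.88 antisense in the *rdr3* set, against -0.999 sense and -1.77 antisense in the joint set. *TAS1A* had 3.39 sense and 2.96 antisense in the *rdr3* set, against -0.06 sense and -1.77 antisense in the joint set. *TAS4* was the exception, at -2.65 sense and -2.73 antisense in the *rdr3* set and -1.70 sense and -1.77 antisense in the joint set. Of the 6 loci, 5 were detected on both strands in the *rdr3* set. Of the same loci in the joint set, 2 were detected sense and 0 antisense. The shares detected among all features were 21.5% sense and 3.79% antisense in the *rdr3* set. They were 22.4% sense and 0.59% antisense in the joint set, so 0 of 6 antisense there lies close to the share. Per length of exon, the sense level of *TAS1C* was 84.5 CPM per kb in the *rdr3* set and 1.63 CPM per kb in the joint set.

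**Figure D2:**
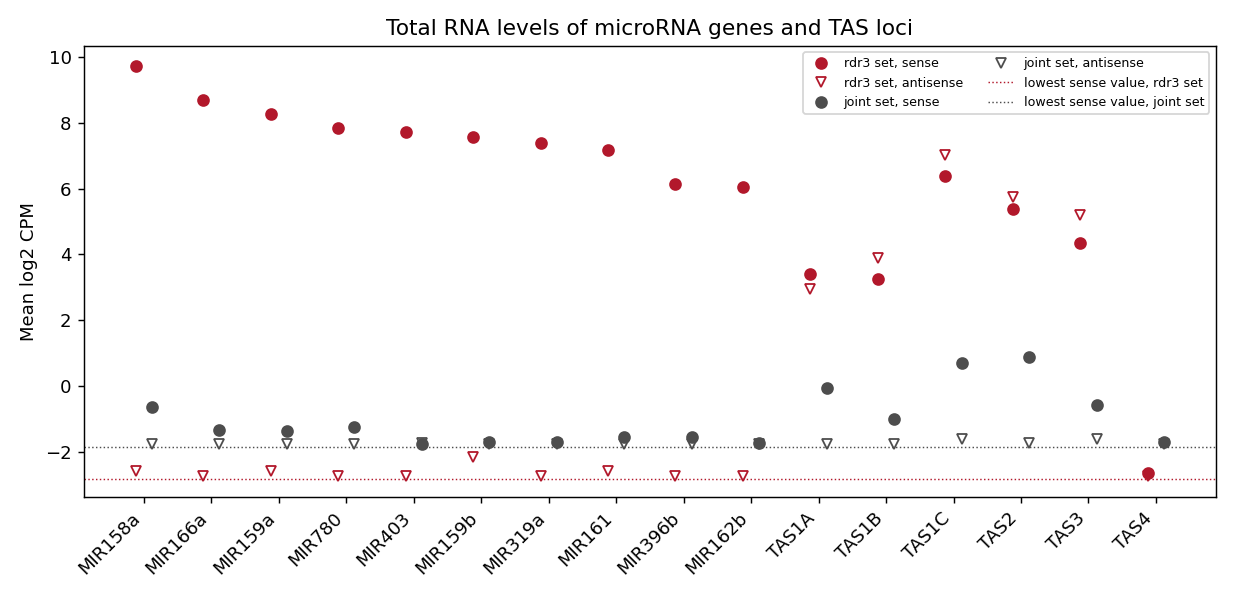
Mean log2 CPM of the 10 miRNA genes with the highest sense level in the *rdr3* set and of the 6 *TAS* loci, for the *rdr3* set (red, left of each pair) and the joint set (grey), on the sense strand (filled circles) and the antisense strand (open triangles), with dotted lines at the lowest sense value of each set. The miRNA genes lie between 6.04 and 9.71 on the sense strand in the *rdr3* set and are low on the antisense strand, whereas 5 of 6 *TAS* loci are above 0 on both strands.

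By log2 CPM, the highest transposable elements on the sense strand of the *rdr3* set were *AT4TE07570* (5.78), *AT3TE63205* (5.60), *AT4TE21980* (5.45), *AT3TE63215* (5.39) and *AT4TE26670* (5.02). These 5 lay between -1.85 and -1.81 in the joint set. The highest antisense levels of the *rdr3* set were those of *AT3TE08290* (6.16), *AT3TE63215* (5.97), *AT2TE52215* (5.15), *AT5TE34865* (5.03) and *AT3TE63205* (5.002). The joint set had an antisense level of -0.92 for *AT3TE08290* and -1.77, the lowest value, for the other 4. *AT3TE63205* and *AT3TE63215* thus stood among the highest 5 on both strands. Of 2124 elements detected on either strand in the *rdr3* set, 868 were detected on both, and the antisense level was the higher in 1082 (50.9%). In the joint set, 84 elements were detected on either strand and 1 (*AT2TE23870*) on both, and the antisense level was the higher in 76 (90.5%). Among the 868 elements, the levels of the 2 strands lay within 1 log2 unit of each other in 645. The detected share on the sense strand in the *rdr3* set was between 4.46% on chromosome 5 and 4.93% on chromosome 4.

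The smRNA comparison of *rdr3* with Col-0 gave a further measure of these loci. It used other libraries of the same tissue, and its mean log2 CPM over both genotypes is deposited for the same features. Sense smRNAs had a log2 CPM above 0 at 744 features. Of these, 741 were detected in the total RNA of the *rdr3* set and 84 in that of the joint set. Among transposable elements, 331 of 331 were detected in the *rdr3* set and 1 of 331 in the joint set, *AT5TE72200*, at 3.84 in the *rdr3* set and 3.49 in the joint set. With antisense smRNAs above 0, 296 of 298 elements were detected in the *rdr3* set and 0 of 298 in the joint set. Among all features of the *rdr3* set, 21.5% were detected sense and 3.79% antisense. In the joint set the shares were 22.4% sense and 0.59% antisense. Of all transposable elements, 0.0257% were detected sense and 0.247% antisense in the joint set. The 0 of 298 there lies close to that antisense share.

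The total RNA level of these elements in the *rdr3* set followed their smRNA level at a nearly fixed distance. Across the 331 elements, total RNA exceeded smRNA by a median of 1.70 log2 units, with quartiles of 1.58 and 1.81. For antisense levels the median over 298 elements was 1.65, with quartiles of 1.53 and 1.74. Pearson's r across these elements was 0.94 (Spearman's rho 0.90) in the *rdr3* set and -0.02 (rho -0.02) in the joint set, given as a description across elements, which are not independent replicates. Elements at lower smRNA levels continued the series. The median total RNA level in the *rdr3* set was -0.79 for the 1778 elements with a sense smRNA level above -3 and up to -2, 0.14 for the 975 above -2 and up to -1, 1.12 for the 494 above -1 and up to 0, 2.06 for the 226 above 0 and up to 1, 3.10 for the 74 above 1 and up to 2, and 4.36 for the 31 above 2. The median in the joint set was -1.85, the lowest value of that table, in each of these bins.

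**Figure D3:**
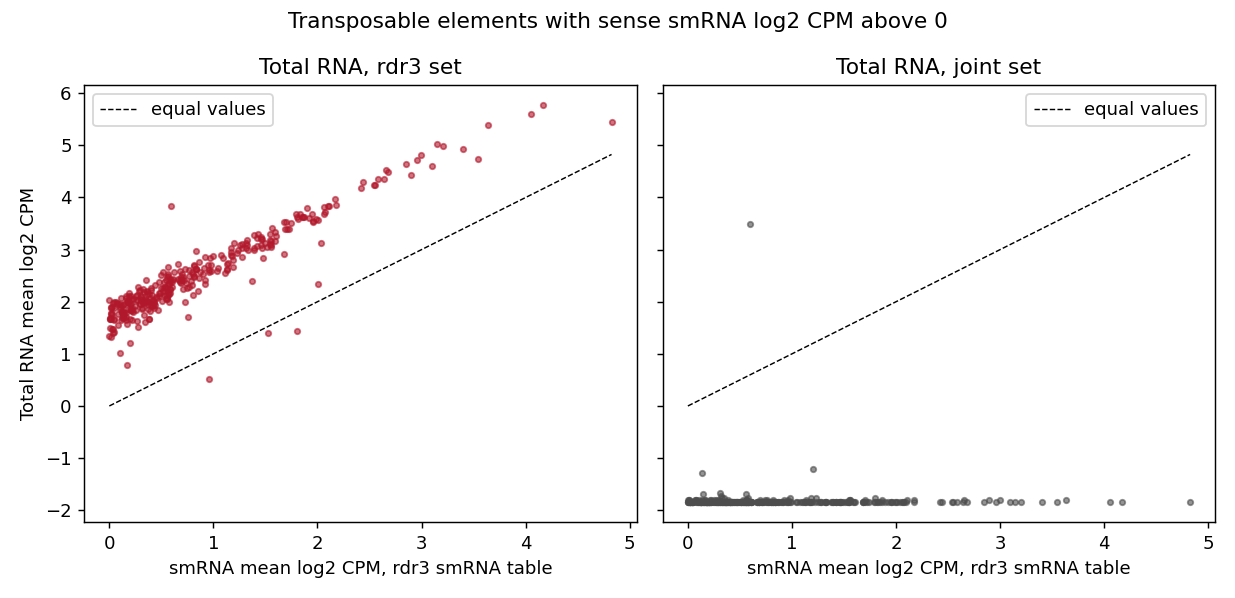
Mean total RNA log2 CPM (vertical axis) against mean smRNA log2 CPM of the *rdr3* smRNA table (horizontal axis), both on the sense strand, for the 331 transposable elements with an smRNA level above 0, in the *rdr3* set (left) and the joint set (right), with a dashed line at equal values. Points of the *rdr3* set run parallel to the line at a median of 1.70 log2 units above it, and all but 1 element of the joint set lie below log2 CPM 0.

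Some other classes lay at a similar distance from their smRNA levels, and others did not. Total RNA exceeded smRNA by a median of 1.68 log2 units at the 182 protein-coding genes, 1.65 at the 49 pseudogenes and 1.76 at the 38 transcribed pseudogenes with a sense smRNA level above 0. The median was 1.16 at 22 snoRNA genes, 0.71 at 19 tRNA genes (quartiles -1.52 and 1.19), 1.40 at 27 plastid genes (quartiles 0.68 and 5.92) and 5.72 at 7 mitochondrial genes. miRNA genes also spread more widely than transposable elements, with a median of 1.32 and quartiles of 0.54 and 1.61 over 38 genes. *MIR166a*, the highest miRNA gene in smRNA at 12.26, had a total RNA minus smRNA difference of -3.58 log2 units, and *MIR162b* one of 1.63. Across all 178 miRNA genes, 32 of them at the lowest smRNA value, Spearman's rho of the total RNA and smRNA levels was 0.97. Over the 38 genes with an smRNA level above 0 it was 0.91. Of the 10 miRNA genes highest in total RNA, 8 were among the 10 highest in smRNA. All 66 detected miRNA genes had an smRNA level above -3. The smRNA libraries were selected for short inserts and the total RNA libraries for longer fragments. Whether smRNA reads entered the total RNA libraries or counts of the *rdr3* comparison was not tested, nor was the part of library preparation or of the sample labels. The total RNA levels of miRNA genes, *TAS* loci and transposable elements in the *rdr3* set may therefore not be levels of long transcripts. Protein-coding genes and pseudogenes with an smRNA level above 0 lay at a similar distance, so the same limit holds for them. A mean over 4 libraries does not show which of them, or which genotype, carried the RNA.

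Differences of at least 2 log2 units between the sets were counted over all features. On the sense strand 1992 features (3.07%) were higher in the *rdr3* set and 47 (0.0725%) were lower. On the antisense strand 1792 (2.77%) were higher and 1 (0.00154%) was lower, the protein-coding gene *AT5G53740*, at an antisense log2 CPM of 6.44 in the *rdr3* set and 8.50 in the joint set. Of the sense features that were higher, 1293 were transposable elements (4.15% of the class), 318 protein-coding genes (1.19%) and 146 pseudogenes (3.73%). A further 70 were transcribed pseudogenes (7.56%), 56 miRNA genes (31.5%) and 27 snoRNA genes (38.0%). The lowest value of the *rdr3* set was -2.83 on the sense strand against -1.85 in the joint set, so a feature at the lowest value of both sets differed by -0.98.

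Among genes above log2 CPM 2 in either set, the 10 that were highest in the *rdr3* set relative to the joint set were the miRNA genes *MIR158a*, *MIR166a*, *MIR159a*, *MIR403*, *MIR159b*, *MIR319a*, *MIR780* and *MIR161*, the transcribed pseudogene *AT3G43832* and the protein-coding gene *AT3G18700*. *AT3G43832* had a log2 CPM of 6.98 sense and 6.54 antisense in the *rdr3* set, against -1.81 sense and -1.65 antisense in the joint set. *AT3G18700* had 6.32 sense and 4.98 antisense in the *rdr3* set, against -1.85 sense and -1.77 antisense in the joint set. Like the *TAS* loci, both genes were thus present on both strands. The smRNA level was 5.29 sense and 4.82 antisense for *AT3G43832*, and 5.04 sense and 4.04 antisense for *AT3G18700*. Their total RNA levels may therefore not be levels of long transcripts either.

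The 10 genes that were lowest in the *rdr3* set relative to the joint set included 4 genes of the U2 spliceosomal RNA. In the *rdr3* set, *U2.7* had a log2 CPM of 5.84, *U2.6* 5.997, *U2.5* 5.85 and *U2.2* 3.09. In the joint set, *U2.7* had 10.26, *U2.6* 8.98, *U2.5* 8.78 and *U2.2* 5.48. *U2.4* went the other way, with 3.41 in the *rdr3* set and -0.80 in the joint set. So did *U2.3*, with 2.48 in the *rdr3* set and 0.77 in the joint set. Both were chosen after their values were seen. Reads with more than 1 place in the genome were assigned to no feature, so the split between copies of a gene family is uncertain. The snoRNA *SNOR105* had 4.35 in the *rdr3* set and 7.23 in the joint set. *NIP5;1*, a boric acid channel, had -0.09 in the *rdr3* set and 2.74 in the joint set. *CPUORF47*, a protein-coding gene named after a conserved upstream reading frame and counted whole, had 1.33 in the *rdr3* set and 3.82 in the joint set. *AT2G07689* had 0.05 in the *rdr3* set and 2.55 in the joint set. *AT2G41475* had -0.22 in the *rdr3* set and 2.05 in the joint set. The mitochondrial gene *ATMG00730* had 4.67 in the *rdr3* set and 6.91 in the joint set.

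**Figure D4:**
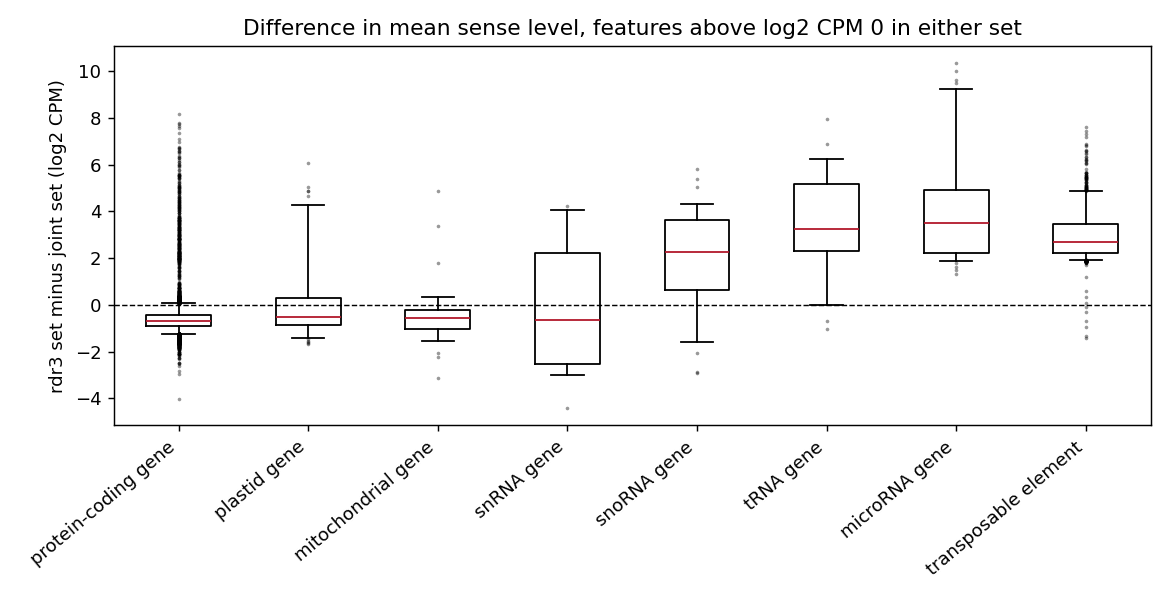
Difference in mean sense log2 CPM, *rdr3* set minus joint set, for features above log2 CPM 0 in either set, by class. Boxes span the quartiles with the median in red, whiskers the 5th to 95th percentiles and points the features beyond them. Features above 0 in 1 set alone had to be higher in it, which holds through the *rdr3* set alone for 64 of 66 miRNA genes, 25 of 29 tRNA genes, 24 of 48 snoRNA genes and 1455 of 1463 transposable elements, so the boxes of these classes are placed by the selection. Protein-coding genes, 14182 of 14576 of them above 0 in the joint set, had a median of -0.69.

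Of the 10 features with the highest sense log2 CPM in the *rdr3* set, 6 were lower there than in the joint set. In the *rdr3* set, *ATMG00020* stood at 14.46, *ATCG00490* at 11.88, *AT1G15405* at 11.80, *AT2G16586* at 11.43, *ATCG00020* at 11.07 and *ATCG00280* at 9.70. The joint set had *ATMG00020* at 15.26, *ATCG00490* at 12.39, *AT1G15405* at 12.41, *AT2G16586* at 11.76, *ATCG00020* at 12.04 and *ATCG00280* at 10.39. The snoRNA genes *AT3G21805*, at 9.92 in the *rdr3* set and 4.88 in the joint set, and *SNOR37-2*, at 9.81 in the *rdr3* set and 4.003 in the joint set, stood with *MIR158a* among the 10, as did *ATMG01380*, at 9.45 in the *rdr3* set and 6.06 in the joint set. The snoRNA genes differed from the miRNA genes in their smRNA level, which was 2.12 for *AT3G21805* and -0.66 for *SNOR37-2*. Of the 24 snoRNA genes detected in the joint set, 16 were higher in the *rdr3* set and 8 were lower.

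The features with the highest antisense log2 CPM were of 2 kinds. In the *rdr3* set, *ATMG00030* had 11.63, *AT3G06895* 8.58, *AT3G41762* 8.06, *AT5G53905* 7.34 and *AT7SL-1* 6.69. In the joint set, *ATMG00030* had 12.07, *AT3G06895* 8.25, *AT3G41762* 7.47, *AT5G53905* 8.10 and *AT7SL-1* 7.61. These 5 were high in both sets. *AT3G06895* overlaps the U4 spliceosomal RNA gene *U4.2* on the opposite strand, whose sense level was 8.14 in the *rdr3* set and 8.24 in the joint set. *AT5G53905* overlaps the snoRNA gene *U3B* on the opposite strand, at 7.45 sense in the *rdr3* set and 8.09 in the joint set. In strand-specific counting, reads of such a neighbour count as antisense reads of the feature.

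The other 5 were high in the *rdr3* set and low in the joint set. *AT3G06435* had 8.73 sense and 7.98 antisense in the *rdr3* set, against 0.94 sense and -1.38 antisense in the joint set. The pseudogene *AT4G06477* had 5.33 sense and 7.43 antisense in the *rdr3* set, against -1.63 sense and -1.35 antisense in the joint set. *AT4G27930* had 5.90 sense and 7.11 antisense in the *rdr3* set, against -1.85 sense and -1.65 antisense in the joint set. The smRNA level was 6.98 sense and 6.64 antisense for *AT3G06435*, and 3.55 sense and 6.19 antisense for *AT4G06477*. For *AT4G27930* it was 4.11 sense and 5.57 antisense. The limit on long transcripts given above therefore holds for these genes too. *TAS1C* was the fourth. *AT4G14810* (chromosome 4, 8504145 to 8504509, plus strand, TAIR10.1) had an antisense level of 7.70 in the *rdr3* set and -1.24 in the joint set, and it overlaps *MIR780* (8504141 to 8504314, minus strand), whose sense level was 7.83 in the *rdr3* set. Among protein-coding genes, 507 were detected antisense in the *rdr3* set and 173 in the joint set, and 98 in both. A gene on the opposite strand overlapped 25.2% of the 507 and 80.9% of the 173, against 23.8% of all protein-coding genes.

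Most protein-coding genes had a lower level in the *rdr3* set than in the joint set. Over the 5949 genes above log2 CPM 2 in either set, the *rdr3* set minus the joint set had a median of -0.71, with 5th and 95th percentiles of -1.21 and -0.02, and 5664 of them were lower in the *rdr3* set. Features took 12.6% of the summed sense CPM in the *rdr3* set and 18.5% in the joint set, and reads outside features 7.68% in the *rdr3* set and 4.53% in the joint set. The part of these shares in the shift was not tested. The median over protein-coding genes above log2 CPM 2 in each table differed by -0.11. With the tables centred on these medians, the median over the 5949 genes was -0.61. Each table picks its own genes at that limit, so a shift shared by all genes moves these medians little. The centring therefore cannot remove such a shift.

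The RDR genes themselves had low levels. Sense log2 CPM in the *rdr3* set was 1.35 for *RDR1*, 0.38 for *RDR2*, 0.92 for *RDR3*, -0.49 for *RDR4*, -0.52 for *RDR5* and 0.79 for *RDR6*. In the joint set it was 1.88 for *RDR1*, 1.04 for *RDR2*, 1.84 for *RDR3*, 0.03 for *RDR4*, -0.06 for *RDR5* and 1.75 for *RDR6*. Per length, *RDR1* was the highest of the 6 in the *rdr3* set at 0.631 CPM per kb, followed by *RDR3* at 0.560 CPM per kb. The mean over both genotypes gives no check of the insertion in *RDR3* (chromosome 2, 8595605 to 8600931, TAIR10.1), because the level in *rdr3* and in Col-0 cannot be separated in it. All 6 genes were lower in the *rdr3* set, by 0.45 to 0.96 log2 units, which spans the shift of protein-coding genes.

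Per length, the partners *SGS3*, the cofactor of RDR6, at 1.66 CPM per kb, and *RDM12*, a factor of RNA-directed DNA methylation, at 1.95 CPM per kb, stood above every RDR gene in the *rdr3* set. *SGS3* had 2.61 CPM per kb and *RDM12* 3.74 CPM per kb in the joint set. The subunits of RNA polymerases IV and V had a log2 CPM of 0.72 (*NRPD1*), 2.65 (*NRPE1*) and 2.72 (*NRPD2*) in the *rdr3* set, and 1.80 (*NRPD1*), 2.98 (*NRPE1*) and 3.46 (*NRPD2*) in the joint set. The Dicer-like genes had 3.08 (*DCL1*), 2.04 (*DCL2*), 2.43 (*DCL3*) and 1.96 (*DCL4*) in the *rdr3* set, and 3.59 (*DCL1*), 2.24 (*DCL2*), 2.96 (*DCL3*) and 3.003 (*DCL4*) in the joint set. Among 10 Argonaute genes, 7 were detected in each set, against 21.5% of all features in the *rdr3* set and 22.4% in the joint set, and *AGO1*, the main effector of miRNAs, was the highest per length at 7.78 CPM per kb in the *rdr3* set and 12.6 CPM per kb in the joint set. *AGO4*, which binds siRNAs of transposable elements, followed at 3.42 CPM per kb in the *rdr3* set and 5.65 CPM per kb in the joint set. *AGO2* was the only Argonaute gene detected antisense, at 0.73 in the *rdr3* set and -1.77 in the joint set.

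The labelled tissue was checked against marker genes. Of all features, 21.5% were detected sense in the *rdr3* set and 22.4% in the joint set. Of protein-coding genes, 44.2% were detected sense in the *rdr3* set and 53.1% in the joint set. Of 13 genes of floral organ identity, 10 were detected in the *rdr3* set and 12 in the joint set. The highest per length in both sets were *SEP3* (log2 CPM of 3.83 in the *rdr3* set, 4.91 in the joint set), *PI* (3.60 in the *rdr3* set, 4.74 in the joint set) and *SEP2* (3.22 in the *rdr3* set, 4.31 in the joint set). *LFY* was low, at a log2 CPM of -1.37 in the *rdr3* set and -0.51 in the joint set. Of 9 tapetum and anther genes, 3 were detected in the *rdr3* set and 5 in the joint set. So few genes do not set these counts apart from the shares of protein-coding genes. *A6* was at 3.24 in the *rdr3* set and 3.21 in the joint set, and *AMS*, a regulator of the tapetum, at 2.98 in the *rdr3* set and 3.39 in the joint set. *A9* was at 1.61 in the *rdr3* set and 1.75 in the joint set. The others of this list lay between -2.68 (*DYT1*) and -0.46 (*DMC1*) in the *rdr3* set. *VGD1*, a pectin methylesterase of mature pollen, was at 4.93 in the *rdr3* set and 5.50 in the joint set. The photosynthetic genes *RBCS1A* (7.79 in the *rdr3* set, 8.25 in the joint set) and *CAB3* (5.99 in the *rdr3* set, 5.96 in the joint set) were also present. The seed genes *CRA1* and *SESA1* and the root genes *RHD6*, *EXPA7* and *PYK10* lay between -2.83 and -2.48 in the *rdr3* set, a range that also holds *DYT1*. In the joint set *PYK10* was at -0.85, and the other seed and root genes lay between -1.85, the lowest value, and -1.81. In a list of 11 heat response genes, 3 were detected in the *rdr3* set and 4 in the joint set. In each set this lies between the share of all features and that of protein-coding genes. *HSC70-1*, a chaperone of unstressed cells, was the highest of the list per length. It had 65.1 CPM per kb in the *rdr3* set and 121 CPM per kb in the joint set.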

How the data were processed

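Per the labels, RNA of unopened buds was fragmented and size-selected for total RNA libraries. The authors trimmed reads with cutadapt, mapped them to TAIR10 with TopHat, counted them per strand with HTSeq and compared *rdr3* with Col-0 in edgeR. Versions are not given in the sources used here. The deposited log2 CPM, the authors' mean over the compared libraries, was the only column used. The other 3 columns of each table (log2 fold change, p-value and FDR) hold the authors' own comparison and were not used. Reads with more than 1 place in the genome were not assigned by HTSeq and made up 79.4% of the summed CPM of the *rdr3* sense table and 76.8% of the joint one. They were left out with the other HTSeq totals.

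Levels were summarised with Python 3.11.15, pandas 2.3.3, numpy 2.4.6 and scipy 1.17.1, and the functions were tested on simulated data. Of 33601 genes, 32834 matched a RefSeq locus tag of TAIR10.1, which gave classes, exon lengths and coordinates. No test was made. Features outside the following rule were named after their values were seen. Named features were the members of the gene lists, the 10 highest on each strand, the 5 highest transposable elements on each strand, and the 10 genes with the largest difference from the joint set in each direction among genes above log2 CPM 2. The members and lists were chosen with earlier results of these data known. Detection at log2 CPM above 0 was varied, as were the choice of features for antisense against sense levels and the centring of the tables.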

Additional observations from a re-analysis of the deposited data

How the results depend on the processing

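With detection at log2 CPM above 1, the *rdr3* set had 8489 sense and 1097 antisense features, 640 sense and 633 antisense transposable elements and 41 miRNA genes. The joint set then had 155 antisense features, 2 sense and 30 antisense transposable elements and 0 miRNA genes. With detection above -1, the *rdr3* set had 5142 antisense features and 3133 sense and 3335 antisense transposable elements. The joint set then had 1023 antisense features, 15 sense and 199 antisense transposable elements and 11 miRNA genes. An alternative chosen after seeing the data counted features more than 1 log2 unit above the lowest value of their table. It gave 25799 sense and 8691 antisense features, 5783 transposable elements on each strand and 113 miRNA genes in the *rdr3* set. It gave 794 antisense features, 164 antisense transposable elements and 9 miRNA genes in the joint set. Transposable elements and miRNA genes were thus detected more often in the *rdr3* set at every limit tried.

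Features with an antisense level above the sense level numbered 1624 in the *rdr3* set and 294 in the joint set. They numbered 738 in the *rdr3* set and 140 in the joint set among features above log2 CPM 1 on a strand. Among genes with no gene on the opposite strand, they numbered 361 in the *rdr3* set and 27 in the joint set. Transposable elements, which have no coordinates in the annotation used, drop out there. So do plastid, mitochondrial and other genes without a RefSeq locus tag. With the tables centred on protein-coding genes, 31 features instead of 47 were lower in the *rdr3* set by 2 log2 units on the sense strand. The other 7 of 36 alternatives stayed within 1.5 times the count given.

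Leaving out each library, another normalization and a filter on low counts were planned for changes in *rdr3* against Col-0 and were not run, because the columns used hold no value per library. No paired analysis was possible because the columns carry no library number. A mean without its libraries limits every level above to a description.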
